A study of Mus musculus with 6 samples.

Results

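Circular RNAs (circRNAs) of cultured mouse adipocyte precursors were compared between the start of adipogenic differentiation (day 0) and its last time point (day 8), which spans the whole course of the experiment. The comparison used the 4 libraries of days 0 and 8 out of 6, and the 1368 of 3869 listed circRNAs that had at least 10 back-splice reads in at least 2 of the 6 libraries. The choice did not use the test of the days, but a circRNA could reach the minimum through the reads of 1 day alone. The cells were the stromal vascular fraction of a depot that the labels name inguinal BAT (brown adipose tissue), taken from 6-week-old C57BL/6 mice and grown in serum-containing medium. Cells of day 0 had not been induced. Cells of day 8 had been kept for 4 days with insulin, dexamethasone and 3-isobutyl-methylxanthine and for 4 further days with insulin and T3, a thyroid hormone. The libraries of day 4, taken between these phases, entered the read minimum, the scaling and the estimate of the spread, and their values are given for orientation. Each day had 2 libraries, and the labels do not say whether they came from separate cultures or animals. The p-values therefore reflect the spread of these samples alone, and that spread may be technical.

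A circRNA forms when the spliceosome joins the end of an exon to the start of the same exon or of one upstream, so that the RNA becomes a closed ring without a cap or a poly(A) tail. Such rings resist exonucleases and outlast most linear transcripts, and a gene that gives rise to one is called its host gene. When preadipocytes differentiate they stop dividing, take down parts of their matrix and contractile apparatus, and switch on transcription factors such as PPARγ with the enzymes of lipid storage. Brown adipocytes in addition burn fatty acids, branched-chain amino acids and glucose in their mitochondria.

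The values are CPM, read counts scaled to a common total over the reads on listed circRNAs, so they are shares of the circular RNA that was detected and not amounts per cell. In these bulk samples fewer cells of a type and less RNA per cell cannot be told apart. Linear RNA had been removed before sequencing, so the level of the hosts' linear transcripts was not measured. The libraries held 40384 to 45733 inferred back-splice reads, of which the tested circRNAs took 80.5% to 83.0%, and 1 read was worth 21.9 to 24.8 CPM. No value stood for a single read, so an entry listed at 0 may hide 1 read. No circRNA was listed without reads in each library of some day, so the table is itself a selection by detection, which bears most on circRNAs with few reads. The deposited table gives positions on mm9 and no gene names. Hosts were found here from the exon structure of GENCODE M21 genes, and for 1270 of the tested circRNAs both ends fell on exon ends of the host. A further 36 shared 1 end with an exon of a host that had such circRNAs, and 62 had no host. The 1368 circRNAs came from 902 host genes.

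The labelled cell type could be checked only through circRNAs, since the markers serve here as host genes. Of 6 adipocyte markers only Pparg was a host, and Adipoq, Plin1, Fabp4, Cidec and Lpl were not listed. Of 7 brown adipocyte markers, Prdm16 and Ebf2 were listed and Ucp1, Cidea, Dio2, Ppargc1a and Zic1 were not. Of 8 markers of preadipocytes or fibroblasts only Pdgfra was listed, and none of 5 endothelial or 7 muscle markers was. Of 6 macrophage and leukocyte markers, Adgre1 was the sole host, with 0 and 0 reads at day 0, 6 and 0 at day 4 and 16 and 19 at day 8, and it was called higher (limma, adjusted p = 0.0311). The brown identity of the cells thus had no test in these data, and the part of macrophage RNA in the results below was not tested.

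The circRNAs with large changes are identified by the sequence across their back-splice junction. The lines below give 20 bases to each side for 5 that rose and 4 that fell, chosen among the leading changes of each direction, all in coding exons. Lower case is the end of the last exon of the ring and capitals are the start of its first exon, 5′ to 3′, from GENCODE M21 transcripts.
Acss3 exons 3 to 5: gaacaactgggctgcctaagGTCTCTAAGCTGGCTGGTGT
Selenbp1 exons 6 to 7: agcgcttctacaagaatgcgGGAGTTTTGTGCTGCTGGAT
Mlxipl exons 3 to 7: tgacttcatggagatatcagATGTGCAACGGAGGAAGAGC
Nox4 exons 13 to 17: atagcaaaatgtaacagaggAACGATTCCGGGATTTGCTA
Tox exons 2 to 3: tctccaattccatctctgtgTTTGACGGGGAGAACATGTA
Pdlim5 exons 4 to 7: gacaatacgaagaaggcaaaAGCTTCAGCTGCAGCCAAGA
Fbln2 exons 3 to 8: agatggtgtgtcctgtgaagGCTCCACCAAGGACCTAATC
Car8 exons 4 to 7: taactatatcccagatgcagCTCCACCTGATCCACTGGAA
Klf2 exon 2: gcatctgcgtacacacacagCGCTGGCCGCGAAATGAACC
The Klf2 ring is a single exon whose end joins its own start. The others skip back over 1 or more introns, and their spliced lengths ran from 309 nucleotides (Tox) to 849 nucleotides (Fbln2).

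Of the 1368 circRNAs, 93 (6.8%) were called, which here means a Benjamini-Hochberg adjusted p under 0.05 in limma. At day 8, 62 (4.53%) were higher and 31 (2.27%) were lower, and in each of them the libraries of the days did not overlap. Without any change, 2 libraries would also separate from 2 others in 0.333 of orderings, so this adds no support to a call. An unadjusted p under 0.05 was found for 295. The rising set held 3.12% and 3.26% of all CPM in the day 0 libraries and 10.0% and 9.55% in the day 8 libraries. The falling set held 6.87% and 6.50% at day 0 and 2.2% and 2.13% at day 8. Among the rising circRNAs, 40 had under 10 reads in both day 0 libraries and 30 were listed at 0 there. They met the read minimum through the later days, so a difference was built into that choice. Among the falling circRNAs, 11 had under 10 reads in both day 8 libraries and 7 were listed at 0. The number called depended on each library of the compared days, being 20 and 21 without day 0 replicates 1 and 2, and 14 and 9 without day 8 replicates 1 and 2. Only the Mlxipl and Pnpla3 circRNAs and the rings of exons 4 to 7 of Gbe1 and 4 to 8 of Bckdhb were called without any 1 of the 6 libraries.

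**Figure D1:**
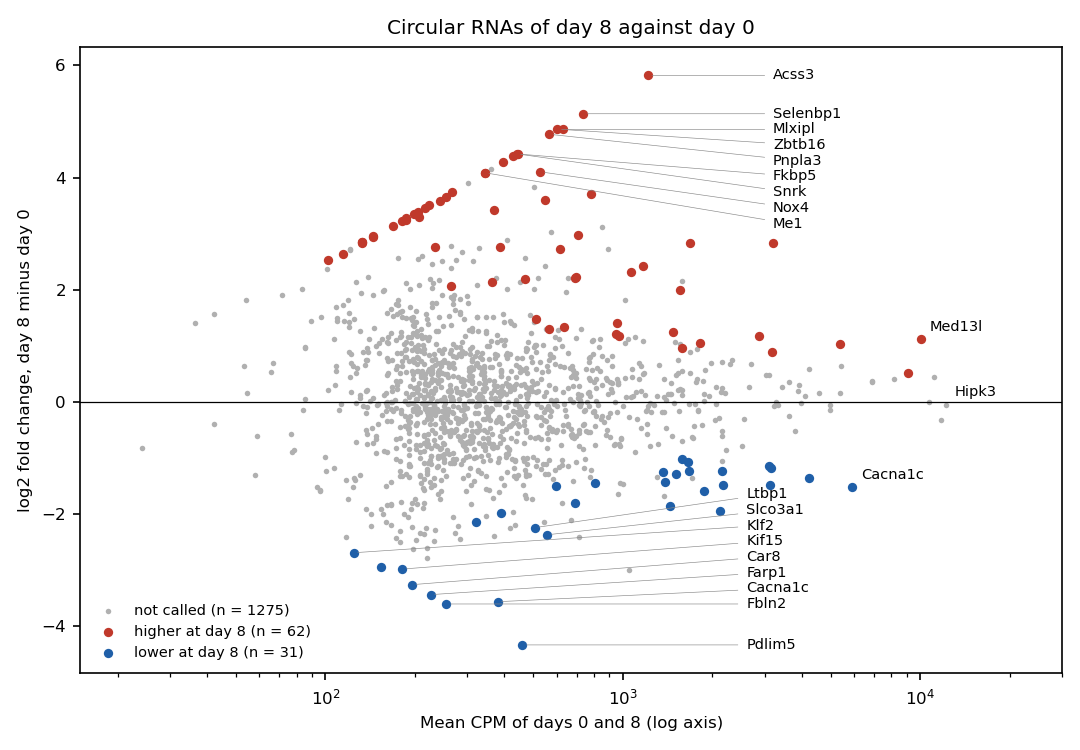
Each point is 1 of the 1368 tested circRNAs, placed by its mean CPM over days 0 and 8 (log axis) and its log2 fold change on the log2(CPM + 43.7) scale. The 62 called higher (red) reach 5.82 for Acss3, the 31 called lower (blue) reach -4.34 for Pdlim5, and the upper edge of red points is formed by circRNAs listed at 0 at day 0.

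Rising and falling circRNAs differed in build, which is given as a description without a test. The stretch of genome between the joined ends had a median of 18596 bp in the rising set, 3817 bp in the falling set and 7922 bp over all tested circRNAs. Rings of a single exon made up 3.45% of the rising, 28% of the falling and 7.09% of all circRNAs with assigned exons. Exon 2, the first exon with a splice acceptor and the commonest start of a circRNA, opened 46.6% of the rising, 56% of the falling and 42.9% of all. An entry in circBase, a public catalogue, existed for 58.1% of the rising, 83.9% of the falling and 80.5% of all. Weighted by CPM, the median span over all tested circRNAs was 6251 and 6230 bp in the day 0 libraries and 7046 and 7033 bp in the day 8 libraries. The share of CPM on circBase entries was 88.3% and 88.3% at day 0 and 85.7% and 85.6% at day 8. No test of these shares was made.

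The largest rise was that of an Acss3 circRNA of exons 3 to 5 (chromosome 10, 106482269 to 106490572, minus strand, mm9). Acss3 encodes a mitochondrial acyl-CoA synthetase for short-chain fatty acids. This circRNA was listed at 0 in both day 0 libraries, had 14 and 7 reads at day 4, and had 118 and 83 reads (2891 and 1966 CPM) at day 8. Against a floor of 3 reads per library it was at least 34.1-fold higher at day 8 (limma, log2 fold change 5.82 ± 0.50 SE, adjusted p = 0.0041). For such circRNAs the fitted log2 value depends on the pseudocount and is no bound, so bounds are given against this floor. Of the 15 leading rises, 4 were Acss3 rings, and 13 of the 15 were listed at 0 in both day 0 libraries.

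Other leading rises came from genes of varied function. The Selenbp1 ring (chromosome 3, 94743568 to 94744148, plus strand) went from 0 and 0 to 62 and 60 reads, at least 20.7-fold higher (adjusted p = 0.0115). Selenbp1 is a selenium-binding protein that oxidises methanethiol. The Mlxipl ring (chromosome 5, 135597376 to 135599887, plus strand) went from 0 and 0 to 53 and 47 reads, at least 17.0-fold higher (adjusted p = 0.0069). Mlxipl encodes ChREBP, a glucose-responsive transcription factor that turns on lipogenic genes. A ring of Pnpla3, a lipid droplet protein, had 0 reads in all libraries of days 0 and 4 and 44 and 50 reads at day 8, at least 15.9-fold higher (adjusted p = 0.0069). A Zbtb16 ring of exons 2 to 4 had 0 and 0 reads at day 0, 36 and 23 at day 4 and 67 and 37 at day 8, at least 17.7-fold higher (adjusted p = 0.0069). Zbtb16 is the zinc finger transcription factor PLZF. Fkbp5, a co-chaperone of the glucocorticoid receptor, gave a single-exon ring with 0 and 0 reads at day 0, 2 and 0 at day 4, and 34 and 39 at day 8, at least 12.4-fold higher (adjusted p = 0.0120). With a pseudocount of 1 CPM the Fkbp5 ring was not called (adjusted p = 0.0548). Snrk, an AMPK-related kinase, and Tox, a chromatin protein of the HMG-box family, had rings at least 12.5-fold and 7.14-fold higher (adjusted p = 0.0145 and 0.0164). In all of these the day 8 libraries lay far above those of day 0, and in the Pnpla3 and Fkbp5 rings the day 4 libraries were at or near 0 as well.

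The leading rings of Nox4 and Ror1 had reads in 1 of the day 0 libraries. The Nox4 ring of exons 13 to 17 (chromosome 7, 94509238 to 94524792, plus strand) had 0 and 2 reads at day 0 and 35 and 51 at day 8 (log2 change 4.10 ± 0.65 SE, adjusted p = 0.0197). This ring was not called with a pseudocount of 1 CPM (adjusted p = 0.148). Nox4 is an NADPH oxidase that releases hydrogen peroxide. A ring sharing 1 end with a Me1 exon, from the gene of the NADPH-producing malic enzyme, had 0 and 0 reads at day 0 and 30 and 27 at day 8, at least 9.66-fold higher (adjusted p = 0.0096). The Ror1 ring of exons 2 to 4 had 0 and 11 reads at day 0 and 59 and 60 at day 8 (10.8-fold higher, adjusted p = 0.0485). Ror1 is a receptor for Wnt ligands. Its day 0 libraries differed from each other, and it was not called in the fit of days 0 and 8 alone (adjusted p = 0.104). The remaining leading rise, on chromosome 17 (34872349 to 34952518, minus strand), had no host and went from 0 and 0 to 27 and 30 reads (adjusted p = 0.0096).

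The largest fall was that of a Pdlim5 circRNA of exons 4 to 7 (chromosome 3, 141966907 to 141977412, minus strand). Pdlim5 encodes a PDZ and LIM domain protein of the actin cytoskeleton. The circRNA had 52 and 26 reads at day 0, 41 and 44 at day 4, and no listed read at day 8, at least 12.7-fold lower (log2 change -4.34 ± 0.48 SE, adjusted p = 0.0069). Its day 4 libraries overlapped those of day 0, so the fall lay between days 4 and 8. The Fbln2 ring of exons 3 to 8 (chromosome 6, 91200852 to 91207820, plus strand) had 20 and 23 reads at day 0, 5 and 2 at day 4 and 0 at day 8, at least 7.06-fold lower (adjusted p = 0.0190). Fbln2 encodes fibulin-2, a matrix glycoprotein. The Car8 ring of exons 4 to 7 (chromosome 4, 8110400 to 8116539, minus strand) went from 17 and 16 reads to 0 and 0, at least 5.41-fold lower (adjusted p = 0.0366). It was not called with a pseudocount of 1 CPM (adjusted p = 0.0946). Car8 is a carbonic anhydrase-related protein without enzyme activity that binds the IP3 receptor.

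A Klf2 ring (chromosome 8, 74843325 to 74844141, plus strand) had 11 and 10 reads at day 0 and was listed at 0 in all 4 later libraries, at least 3.44-fold lower (adjusted p = 0.0243). Klf2 is a Krüppel-like transcription factor known to hold preadipocytes undifferentiated. The Kif15 ring of exons 2 to 5 had 24 and 7 reads at day 0 and 0 and 0 at day 8, at least 5.02-fold lower (adjusted p = 0.0485). Kif15 is a motor protein of the mitotic spindle, and its day 0 libraries differed from each other more than those of Klf2. Rings of Slco3a1, an organic anion transporter, and of Ltbp1, which anchors latent TGF-β in the matrix, were 6.06-fold and 5.95-fold lower (adjusted p = 0.0466 and 0.0384). Rings of Efnb2, an ephrin ligand, and of Slc7a11, the cystine and glutamate exchanger, were 5.48-fold and 4.00-fold lower (adjusted p = 0.0451 and 0.0485). The rings of Klf2, Kif15, Slco3a1, Ltbp1, Efnb2 and Slc7a11 were not called in the fit of days 0 and 8 alone. Their adjusted p there lay between 0.0524 and 0.0905. The Ripk2 ring of exons 2 to 4 had 171 and 121 reads at day 0, 75 and 72 at day 4 and 34 and 33 at day 8, 4.27-fold lower (adjusted p = 0.0069). Ripk2 is a kinase downstream of NOD receptors, and its ring had the most reads at day 0 among the 15 leading falls. The others of these 15 were rings of Cacna1c, Farp1, Tcf4 and Ttc3 and 1 without a host on chromosome 5, all with adjusted p between 0.0164 and 0.0485.

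Of the 10 circRNAs with the highest mean CPM over both days, 3 were called, beside 6.8% of all tested circRNAs. The other rings, those of Hipk3, Pvt1, Mettl9, Nfix, Lrch3, Erbin and Cnot6l had adjusted p between 0.153 and 0.978. The Hipk3 exon 2 ring had 12854 and 12785 CPM at day 0 and 11024 and 12389 CPM at day 8 (log2 change -0.06 ± 0.13 SE). The called ones were a Cacna1c ring, which fell (9026 and 8765 to 3356 and 2511 CPM, adjusted p = 0.0089), and rings of Svep1 and Med13l, which rose. Svep1, a large matrix protein, gave 7611 and 7869 CPM at day 0 and 10877 and 9996 CPM at day 8 (log2 change 0.50, adjusted p = 0.0485). Med13l, a subunit of the kinase module of Mediator, gave 6195 and 6949 CPM at day 0 and 13842 and 13242 CPM at day 8 (log2 change 1.12, adjusted p = 0.0281). The Svep1 change was small in fold and was not called with all 3869 circRNAs fitted (adjusted p = 0.0829). With a pseudocount of 1 CPM neither the Svep1 ring (adjusted p = 0.193) nor the Med13l ring (0.0806) was called.

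To describe the change by host gene, the CPM of all listed circRNAs of a host were summed in each library. The same read minimum left 1099 host sums. The test called 105 of them (9.55%), of which 63 (5.73% of all) rose and 42 (3.82%) fell, and 100 of the 105 had a gene name. In each of them the libraries of the days did not overlap, which again adds no support to a call. Of the 63 that rose, 29 had under 10 reads in both day 0 libraries, and of the 42 that fell, 10 had under 10 reads in both day 8 libraries. The count was 60 and 68 without day 0 replicates 1 and 2, 17 and 11 without day 8 replicates 1 and 2, and 64 with a pseudocount of 1 CPM. Acss3, Zbtb16, Pnpla3, Mlxipl, Gbe1, Bckdhb, Egfr, Ripk2 and the locus without a host on chromosome 17 were called without any 1 of the 6 libraries. The median log2 fold change over all host sums was 0.04.

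**Figure D2:**
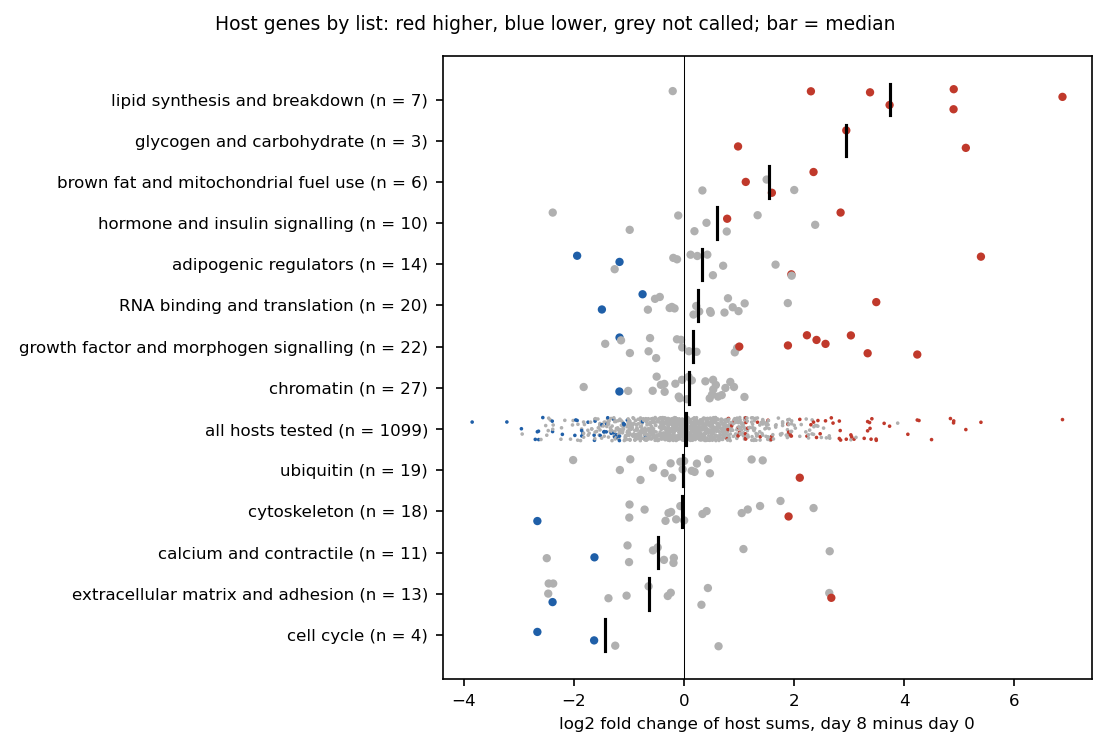
Each point is the log2 fold change of 1 host sum, day 8 minus day 0, on the log2(CPM + 43.7) scale, grouped by gene list, with all 1099 host sums in the same plot, the bar at the median and vertical scatter for legibility only. The medians run from 3.74 for lipid synthesis and breakdown to -1.44 for the cell cycle, beside 0.04 for all.

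Host genes of lipid metabolism were called higher in 6 cases and lower in none, beside 5.73% and 3.82% of all host sums. Of 52 genes on the list of lipid synthesis and breakdown, 14 were hosts and 7 had enough reads, with a median log2 fold change of 3.74. Of these 7, 5 had under 10 reads in both day 0 libraries, so that they entered through later days, and the count says little beyond the single values. The Acss3 sum was listed at 0 in both day 0 libraries, had 590 and 396 CPM at day 4 and 5635 and 4548 CPM at day 8, at least 71.6-fold higher (limma, adjusted p = 0.000176). The Pnpla3 sum was 0 in all 4 earlier libraries and 1274 and 1232 CPM at day 8, at least 17.6-fold higher (adjusted p = 0.0039). The Abca1 sum, from the gene of the cholesterol exporter, went from 0 and 0 through 131 and 322 to 1445 and 1090 CPM, at least 17.8-fold higher (adjusted p = 0.0044). These 3 had no listed read at day 0, and Acss3 and Abca1 were above 0 by day 4.

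Acaca encodes acetyl-CoA carboxylase, which makes the building block of fatty acid synthesis. Its sum was 255 and 194 CPM at day 0 and 980 and 1540 CPM at day 8, 5.61-fold higher (adjusted p = 0.0137). The Me1 sum was 0 and 145 CPM at day 0, 0 and 0 at day 4 and 1323 and 995 CPM at day 8 (log2 change 3.74, adjusted p = 0.0249). The Cd36 sum, from the gene of the fatty acid transporter, was 0 and 0 at day 0 and 416 and 403 CPM at day 8, at least 5.76-fold higher (adjusted p = 0.0135). Of these, only Acaca reached 10 reads in a day 0 library. Mboat2, a lysophospholipid acyltransferase and the remaining tested member, had a log2 fold change of -0.20 (adjusted p = 0.718). The calls of Abca1, Cd36, Acaca and Me1 were lost without either day 8 library (adjusted p up to 0.0611, 0.0787, 0.130 and 0.127), that of Acaca also without day 0 replicate 2, and that of Me1 also without day 0 replicate 1 or day 4 replicate 2 and with a pseudocount of 1 CPM (0.204). Macrophages also express Cd36 and Abca1, and the rise of the macrophage marker Adgre1 from 0 and 0 to 16 and 19 reads stands beside theirs, but its part in these values was not tested. Mlxipl, which regulates several of these genes, is not on the list and its sum was that of its single ring, 1298 and 1113 CPM at day 8 (adjusted p = 0.0039).

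Host genes of glycogen and carbohydrate metabolism rose in 3 of 3 tested cases, beside 5.73% of all host sums. The list had 26 genes, of which 7 were hosts (median log2 fold change 2.95). Selenbp1 had under 10 reads in both day 0 libraries and entered through later days, so the count is a description only. Gbe1, the glycogen branching enzyme, had 371 and 436 CPM at day 0, 1356 and 1659 at day 4 and 3258 and 3293 CPM at day 8. Its replicates lay close together and each day was above the one before, so that the rise was 8.12-fold (log2 change 2.95 ± 0.23 SE, adjusted p = 0.000558). Phkb, the regulatory beta subunit of phosphorylase kinase, had 1903 and 2082 CPM at day 0 and 3405 and 4288 CPM at day 8, 1.93-fold higher (adjusted p = 0.0172). Its call was lost without any 1 library of days 0 and 8 (adjusted p up to 0.124, without day 8 replicate 2). Selenbp1, the third, was listed at 0 at day 0 and is not an enzyme of glycogen, and its call was lost without either day 8 library (up to 0.0665).

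On the list of brown fat and mitochondrial fuel use, 3 of 6 tested hosts rose and none fell (55 genes, 9 hosts, median log2 fold change 1.55). Of all host sums, 5.73% rose and 3.82% fell. Pcca had under 10 reads in both day 0 libraries, so that it entered through later days. Bckdhb, the E1 beta subunit of branched-chain ketoacid dehydrogenase, had 1578 and 1453 CPM at day 0, 3302 and 3293 at day 4 and 8403 and 6893 CPM at day 8, 5.05-fold higher (log2 change 2.36 ± 0.16 SE, adjusted p = 0.000382). Hibadh, a dehydrogenase of valine breakdown, had 1091 and 896 CPM at day 0 and 2205 and 2037 CPM at day 8, 2.14-fold higher (adjusted p = 0.0263). Pcca, the alpha subunit of propionyl-CoA carboxylase, had 186 and 145 CPM at day 0 and 563 and 569 CPM at day 8, 3.42-fold higher (adjusted p = 0.0440). Bckdhb was both the most abundant and the most firmly separated. The call of Hibadh was lost without any 1 library of days 0 and 8 (adjusted p up to 0.159, without day 8 replicate 1), and that of Pcca without any 1 of the 6 libraries (up to 0.189) and in the fit of days 0 and 8 alone (0.0786). The members not called were Ogdh of the citric acid cycle, Auh of leucine breakdown and Acadm of fatty acid oxidation (adjusted p = 0.257, 0.140 and 0.240).

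**Figure D3:**
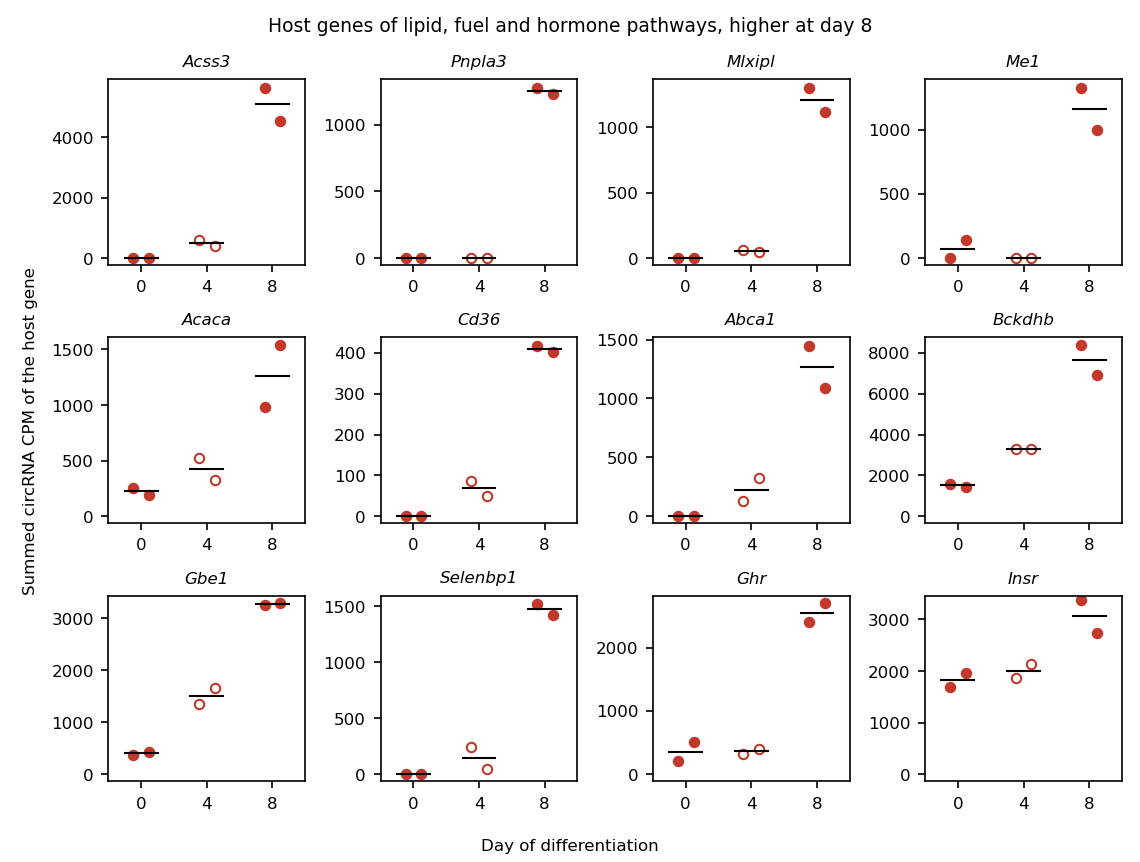
Summed circRNA CPM of 12 host genes that rose, by day, with 1 point per library (open at day 4) and a line at the mean, each panel with its own CPM axis. Acss3, Pnpla3, Mlxipl, Cd36, Abca1 and Selenbp1 are at 0 in both day 0 libraries, while Gbe1 and Bckdhb climb on each day and Insr moves from 1694 and 1961 to 3381 and 2748 CPM.

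Transcriptional regulators of adipogenesis moved in both directions. Of 45 genes, 20 were hosts and 14 were tested (median log2 fold change 0.34). Of these 14, 2 rose and 2 fell, beside 5.73% and 3.82% of all host sums. The Zbtb16 sum was listed at 0 at day 0, had 1224 and 718 CPM at day 4 and 2278 and 1398 CPM at day 8, at least 25.8-fold higher (adjusted p = 0.0010). That sum met the read minimum through those later days. Ebf1, an early B cell factor that acts in adipocyte commitment, had 348 and 484 CPM at day 0 and 1886 and 1445 CPM at day 8, 4.00-fold higher (adjusted p = 0.0128). Zbtb38, a zinc finger protein that binds methylated DNA, had 1833 and 1961 CPM at day 0, 43.7 and 124 at day 4 and 343 and 569 CPM at day 8, 4.16-fold lower (adjusted p = 0.0425). Its lowest values were those of day 4, and both later days lay below day 0. Tead1, the DNA-binding partner of YAP, had 3202 and 2179 CPM at day 0 and 1225 and 995 CPM at day 8, 2.42-fold lower (adjusted p = 0.0406). The call of Tead1 was lost without any 1 of the 6 libraries (adjusted p up to 0.203, without day 0 replicate 1). That of Ebf1 was lost without either day 8 library (up to 0.101) and that of Zbtb38 without any 1 library of days 0 and 8 (up to 0.224), and Tead1 and Zbtb38 were not called with a pseudocount of 1 CPM (0.0717 and 0.122).

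Pparg, the master regulator of adipogenesis, had 1 called ring, while its sum was not called. Ring and sum were both higher at day 8, and a difference between them was not tested. The ring of exons 2 to 5 (chromosome 6, 115333697 to 115401100, plus strand) had 0 and 0 reads at day 0, 5 and 7 at day 4 and 14 and 16 at day 8, at least 5.08-fold higher (adjusted p = 0.0212). The sum over all Pparg rings had 10 and 9 reads at day 0, 8 and 31 at day 4 and 40 and 40 at day 8. It was 4.28-fold higher at day 8 and was not called (log2 change 1.96 ± 0.61 SE, adjusted p = 0.0891). The day 4 libraries of the sum, which enter the estimate of the spread, lay far apart. The ring's call was lost without any 1 library of days 0 and 8 (adjusted p up to 0.0893). Prdm16, a cofactor of brown adipocyte fate, had 14 and 14 reads at day 0 and 5 and 4 at day 8 (log2 change -1.26, adjusted p = 0.201). Ebf2 stayed between 0 and 6 reads in every library.

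Among genes of hormone and insulin signalling, 2 of 10 tested hosts rose, beside 5.73% of all host sums, and none fell. The list had 41 genes and 19 hosts (median log2 fold change 0.60). The Ghr sum, from 13 circRNAs of the growth hormone receptor gene, was 209 and 508 CPM at day 0, 328 and 396 at day 4 and 2401 and 2700 CPM at day 8, 7.11-fold higher (adjusted p = 0.0064). The day 4 libraries of the sum lay between those of day 0, and both days lay below day 8. Its called ring of exons 2 to 8 had 0 and 6 reads at day 0, 9 and 12 at day 4 and 40 and 45 at day 8 (adjusted p = 0.0370). That ring was not called in the fit of days 0 and 8 alone (adjusted p = 0.0684) or with a pseudocount of 1 CPM (0.238). Day 4 was not tested against day 0. The insulin receptor gene Insr had 1694 and 1961 CPM at day 0 and 3381 and 2748 CPM at day 8, 1.68-fold higher (adjusted p = 0.0467). Insr lost its call without any 1 of the 6 libraries (adjusted p up to 0.244, without day 8 replicate 1) and without scaling between libraries, and Ghr without either day 8 library (up to 0.0806). Igf1r had 90 and 78 reads at day 0 and 4 and 40 at day 8 (adjusted p = 0.0966), so its day 8 libraries lay far apart.

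Growth factor and morphogen genes gave 8 rising hosts and 1 falling host among 22 tested (54 genes, 31 hosts, median log2 fold change 0.16). Over all host sums, 5.73% rose and 3.82% fell. Ism1, Pcsk5 and Tgfbr2 had under 10 reads in both day 0 libraries and entered through later days, so the count is a description only. Egfr, the epidermal growth factor receptor, had 394 and 315 CPM at day 0, 1378 and 1436 at day 4 and 1911 and 2061 CPM at day 8, 5.60-fold higher (adjusted p = 0.0024). Tgfbr2, the type II TGF-β receptor, had 116 and 48.4 CPM at day 0, 897 and 817 at day 4 and 612 and 426 CPM at day 8, 6.32-fold higher (adjusted p = 0.0263). Acvr2a, a receptor for activins, had 3712 and 3584 CPM at day 0 and 7497 and 6680 CPM at day 8, 1.94-fold higher (adjusted p = 0.0061). The Ror1 sum was 116 and 654 CPM at day 0, 3564 and 3714 at day 4 and 2474 and 2724 CPM at day 8, 6.75-fold higher (adjusted p = 0.0167). Of these receptors, Tgfbr2 and Ror1 were highest at day 4.

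The other called hosts on this list were Bmper, Ism1, Pcsk5 and Nox4. Bmper, which binds bone morphogenetic proteins, had 255 and 72.6 CPM at day 0, 2034 and 2055 at day 4 and 784 and 1350 CPM at day 8, 6.51-fold higher (adjusted p = 0.0150). Ism1, a secreted isthmin, was listed at 0 at day 0 and had 441 and 355 CPM at day 8, at least 5.60-fold higher (adjusted p = 0.0135). Pcsk5, a convertase of growth factor precursors, had 139 and 121 CPM at day 0 and 441 and 758 CPM at day 8, 4.61-fold higher (adjusted p = 0.0249). Bmper and Pcsk5, too, were highest at day 4. Nox4 had 46.4 and 266 CPM at day 0, 372 and 74.3 at day 4 and 3111 and 2937 CPM at day 8, 19.3-fold higher (adjusted p = 0.0135). Its days 0 and 4 overlapped, and both lay below day 8. Tead1, given above, was the falling member. Egfr alone of the 8 was called without any 1 library, and the largest adjusted p on leaving 1 out was 0.0800 for Acvr2a, 0.0857 for Ism1, 0.12 for Nox4 and 0.124 for Ror1, and between 0.126 and 0.186 for Bmper, Pcsk5 and Tgfbr2, all without a day 8 library. Bmper, Pcsk5, Ror1 and Tgfbr2 were not called in the fit of days 0 and 8 alone (adjusted p = 0.0611, 0.0777, 0.0581 and 0.0716). With a pseudocount of 1 CPM, Bmper, Nox4, Ror1 and Tgfbr2 were not called (adjusted p = 0.053, 0.0638, 0.0662 and 0.053).

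On the falling side the most abundant host was Cacna1c, the pore-forming subunit of the L-type calcium channel. Its 7 circRNAs summed to 16381 and 14940 CPM at day 0, 6101 and 9261 at day 4 and 5439 and 4311 CPM at day 8, 3.21-fold lower (log2 change -1.62 ± 0.21 SE, adjusted p = 0.0052). The call was lost without day 8 replicate 2 (adjusted p = 0.0665). It was the only called gene of 11 tested on the list of calcium and contractile genes, beside 9.55% of all host sums (40 genes, 16 hosts, median log2 fold change -0.47). Trpc6, a cation channel, had 14 and 21 reads at day 0 and 0 and 4 at day 8 (adjusted p = 0.0891), while Cacna1d, another L-type channel, had 6 and 0 at day 0 and 22 and 20 at day 8 (adjusted p = 0.0555). Neither passed the threshold.

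Few genes of the cell cycle were hosts (10 of 46). Of 4 tested, 2 fell, beside 3.82% of all host sums, and none rose (median log2 fold change -1.44). Knl1, a scaffold of the kinetochore, had 1508 and 1671 CPM at day 0, 678 and 718 at day 4 and 686 and 308 CPM at day 8, 3.20-fold lower (adjusted p = 0.0351). Diaph3, a formin that nucleates actin and is also on the cytoskeleton list, had 1160 and 1501 CPM at day 0 and 98.0 and 261 CPM at day 8, 7.42-fold lower (log2 change -2.66 ± 0.48 SE, adjusted p = 0.0137). The checkpoint kinase gene Bub1b had 52 and 75 reads at day 0 and 27 and 21 at day 8 and lay just past the threshold (adjusted p = 0.0505), and Ezh2 had a log2 fold change of 0.63 (adjusted p = 0.669). The Kif15 sum, on none of the lists, went from 626 and 218 CPM to 0 and 0, at least 5.84-fold lower (adjusted p = 0.0228). The call of Knl1 was lost without any 1 library other than day 8 replicate 1 (adjusted p up to 0.152), that of Diaph3 without any 1 library of days 0 and 8 (up to 0.0949), and that of Kif15 without day 0 replicate 1, day 4 replicate 2 or either day 8 library (up to 0.111), and Knl1 and Kif15 were not called in the fit of days 0 and 8 alone (0.0716 and 0.0611). On the cytoskeleton list the related formin Diaph2 rose, from 534 and 605 to 1984 and 2345 CPM (3.80-fold, adjusted p = 0.0061). That list had 1 call in each direction among 18 tested, beside 9.55% called of all host sums (39 genes, 23 hosts, median log2 fold change -0.03). Without a day 8 library Diaph2 was not called (adjusted p up to 0.0665).

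Matrix and adhesion genes had 1 call in each direction among 13 tested, beside 9.55% called of all host sums (57 genes, 22 hosts, median log2 fold change -0.64). Ltbp1 had 1114 and 1090 CPM at day 0, 284 and 545 at day 4 and 196 and 142 CPM at day 8, 6.52-fold lower (adjusted p = 0.0150). Fbn2, which encodes fibrillin-2 of the elastic fibre system, had 255 and 145 CPM at day 0 and 1225 and 1658 CPM at day 8, 7.2-fold higher (adjusted p = 0.0135). The Fbln2 sum had 48 and 45 reads at day 0 and 14 and 18 at day 8 (log2 change -1.37, adjusted p = 0.0540) and was not called, although 1 of its rings was. Fbn1, Ltbp2 and Pxdn had log2 fold changes of -2.45, -2.37 and -2.46 without passing the test (adjusted p = 0.193, 0.0827 and 0.102), and so did Fndc3a and Svep1 with 2.64 and 0.44 (0.0949 and 0.0530). Ltbp1 had under 10 reads in both day 8 libraries. Leaving out 1 library raised the adjusted p of Ltbp1 to at most 0.0952 (without day 0 replicate 1) and that of Fbn2 to 0.124 (without day 8 replicate 2).

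The lists of RNA binding and translation, chromatin and ubiquitin held 3, 1 and 1 called hosts, beside 9.55% of all host sums. Of 20 tested RNA-binding hosts (48 genes, 25 hosts, median log2 fold change 0.25), Cpeb3 rose and Samd4 and Mbnl2 fell. Samd4, a translational repressor of the Smaug family, had 5685 and 4455 CPM at day 0 and 1592 and 1800 CPM at day 8, 2.99-fold lower (adjusted p = 0.0135). Mbnl2, a splicing regulator of the muscleblind family, was 1.77-fold lower (adjusted p = 0.0448), and Cpeb3, which controls cytoplasmic polyadenylation, went from 0 and 2 reads to 28 and 27 (adjusted p = 0.0199) and entered through its later reads. Of 27 chromatin hosts (47 genes, 34 hosts, median log2 fold change 0.09), the histone methyltransferase Nsd2 fell from 4269 and 4431 to 1911 and 1753 CPM (2.37-fold, adjusted p = 0.0054) and none rose. Of 19 ubiquitin hosts (41 genes, 26 hosts, median log2 fold change -0.02), the ligase Rnf13 rose from 464 and 363 to 1764 and 1919 CPM (4.45-fold, adjusted p = 0.0052) and none fell. Leaving out 1 library gave adjusted p up to 0.0665 for Nsd2 and Rnf13 (without day 8 replicate 2), 0.106 for Samd4 and 0.108 for Cpeb3 (both without day 8 replicate 1), and 0.176 for Mbnl2 (without day 0 replicate 1), and Cpeb3 and Mbnl2 were not called with a pseudocount of 1 CPM (0.134 and 0.0529).

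The other large falls of host sums were spread over functions. Car8 went from 719 and 508 CPM at day 0 to 0 and 74.3 at day 4 and 0 and 0 at day 8, at least 8.49-fold lower (adjusted p = 0.0137). The Farp1 sum went from 1555 and 1114 to 220 and 142 CPM, 7.36-fold lower (adjusted p = 0.0421). Nav1, a microtubule-binding protein, went from 14 and 17 reads to 2 and 0 (log2 change -2.64, adjusted p = 0.0406). Klf2 and Slco3a1 had a single ring each, given above. Loci without a host on chromosomes 5 and 19 were listed at 0 at day 8, from 15 and 11 reads and from 10 and 10 reads at day 0 (adjusted p = 0.0261 and 0.0263). In this group every day 4 library lay below both of day 0, except at the chromosome 5 locus. Leaving out 1 library ended each of these calls. A pseudocount of 1 CPM ended those of Car8, Farp1, Nav1 and Slco3a1 (adjusted p = 0.0670, 0.0914, 0.191 and 0.0726). The fit of days 0 and 8 alone ended those of Klf2, Nav1, Slco3a1 and the loci on chromosomes 5 and 19. Their adjusted p there lay between 0.055 and 0.078.

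**Figure D4:**
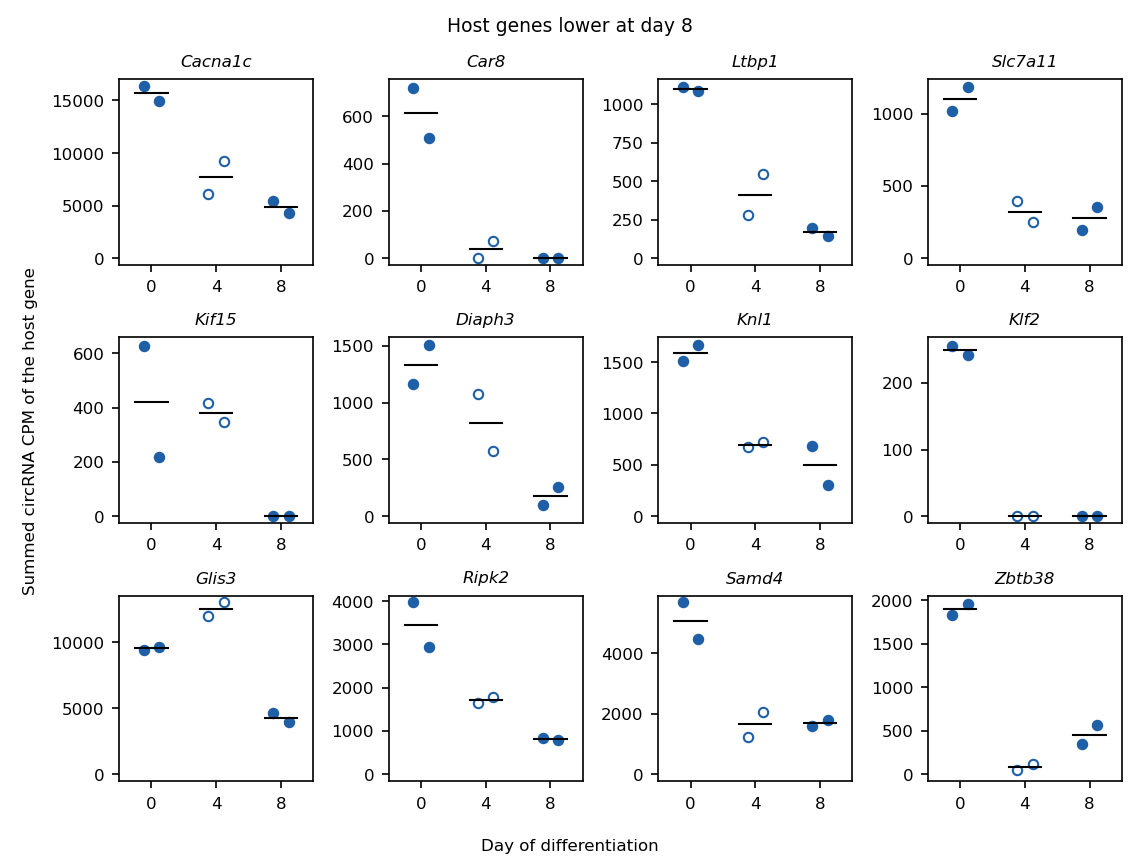
Summed circRNA CPM of 12 host genes that fell, by day, with 1 point per library (open at day 4) and a line at the mean, each panel with its own CPM axis. Klf2 is at 0 from day 4 on, Kif15 reaches 0 at day 8 from 415 and 347 CPM at day 4, Zbtb38 is lowest at day 4, and Glis3 is highest at day 4 before it falls to 4630 and 3932 CPM.

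Where a host gave rise to several rings, their changes could be set side by side. Of the 902 hosts, 83 had at least 3 tested circRNAs, 317 circRNAs in all. In 32 of the 83 no log2 fold changes had opposite signs, which includes Bmper with 1 ring at a change of 0. This count was not set against chance. Rings of 1 host share its transcription and often an exon end, so they are not independent. All 5 tested Acss3 rings rose, with log2 fold changes from 2.84 to 5.82, and they began at exon 2, exon 3 or exon 9. All 7 Cacna1c rings had lower values at day 8 (log2 changes -1.01 to -3.57), of which 3 were called. Glis3, a Krüppel-like zinc finger transcription factor, had 6 rings with values from -0.50 to -2.34. Those of exon 2 and exon 4 were called (adjusted p = 0.0370 and 0.0245). In the fit of days 0 and 8 alone the ring of exon 2 was not called (adjusted p = 0.0792). The sum over the Glis3 rings was 9444 and 9661 CPM at day 0, 12004 and 13074 at day 4 and 4630 and 3932 CPM at day 8, 2.23-fold lower (adjusted p = 0.0044, and 0.0665 without day 8 replicate 2).

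In Bckdhb all 4 tested rings had higher values at day 8. Those that end at exon 8 were called, the ring of exons 4 to 8 with 37 and 30 reads at day 0 and 243 and 223 at day 8 (log2 change 2.84 ± 0.18 SE, adjusted p = 0.0016) and that of exons 2 to 8 with 0 and 0 and then 25 and 15 (adjusted p = 0.0190). The Bckdhb ring of exons 2 to 6 had 19 and 23 reads at day 0 and 40 and 24 at day 8 (log2 change 0.62, adjusted p = 0.459). In Pdlim5 the ring of exons 4 to 7 was listed at 0 at day 8, and that of exons 8 to 9 had 53 and 55 reads at day 0 and 48 and 51 at day 8 (log2 change -0.02 ± 0.23 SE, adjusted p = 0.968). The Pdlim5 ring of exons 6 to 8 had 4 and 22 reads at day 0 and 12 and 19 at day 8 (adjusted p = 0.676), and the Pdlim5 sum was not called (adjusted p = 0.133). The differences between rings of a host were not tested. None of 5 Phkb rings was called, with log2 fold changes from 0.69 to 1.10, although their sum was. Nox4 had 3 tested rings with values from 3.28 to 4.10, of which 2 were called.

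**Figure D5:**
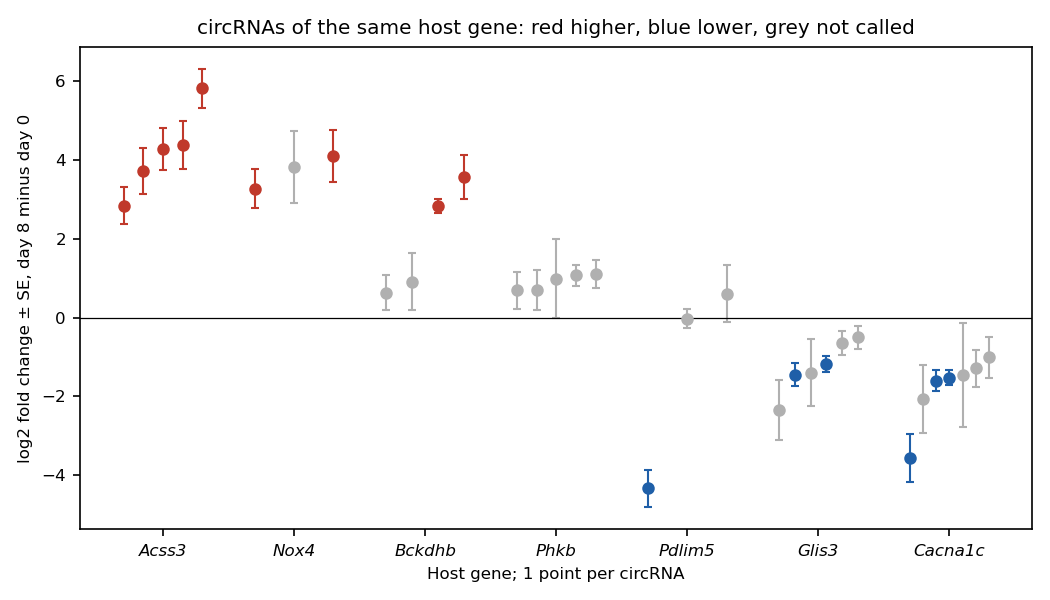
Log2 fold change (day 8 minus day 0, log2(CPM + 43.7) scale) with its SE for each tested circRNA of 7 hosts, ordered by value within a host. The Acss3 points all lie at or above 2.84 and the Cacna1c points at or below -1.01, while in Pdlim5 1 ring stands at -4.34 beside others at -0.02 and 0.60.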

How the data were processed

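RNA of 6 libraries was depleted of ribosomal and linear RNA and sequenced, per the labels' protocols. The authors deposited CPM per circRNA and library. FastQC 0.11.9, HISAT2 2.2.0 and build mm9 are named per the submitters' processing notes, and for the circRNA caller nothing is given in the sources used here. Reads were inferred as CPM divided by a step, where a column's smallest non-zero value is 2 steps (largest deviation from whole reads 2.52e-07), which gives 40384 to 45733 reads per library. Because the values are CPM, no count model was run.

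Positions are on mm9 and the annotation is on GRCm38 (GENCODE M21), and nothing was converted. A host is a gene on the same chromosome and strand with an exon start and exon end separated by exactly the span of the circRNA, where the implied shift between builds (up to 12 Mb) was shared by at least 3 circRNAs. This found exact hosts for 3531 of 3869 circRNAs (91.3%), and 36 matched several genes. No annotation of mm9 was used here, so single hosts were not checked in another way.

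limma 3.58.1 in R 4.3.3 was fitted with a mean-variance trend to log2(CPM + 43.7) after TMM scaling (coded in R), with all 6 libraries and day as a factor, on those circRNAs or host sums that reached 10 reads in 2 or more libraries. The pseudocount is the smallest non-zero CPM. Fold changes on this scale understate low values, and fold values in the text are ratios of mean CPM. Named circRNAs are the 15 largest changes per direction among those called, not overlapping between days and above 162 CPM in the higher day, and the 10 most abundant. Named hosts are the 10 largest changes per direction and called members of 13 gene lists, and within-host comparisons use hosts with at least 3 tested circRNAs. List members that were not called, and the Pparg ring, were named after their values were seen. The comparison, its members and the lists were chosen with earlier results of these data known. In tables simulated with a dispersion of 0.1, 14.6% of 2-fold, 64.5% of 4-fold and 84.8% of 8-fold changes of circRNAs between days 0 and 8 were recovered, and 0.418% of unchanged circRNAs were called. Python 3.11.15 was used for hosts, junctions and figures.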

Additional observations from a re-analysis of the deposited data

How the results depend on the processing

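No result called in the comparison changed sign under the alternatives run. That was nearly fixed in advance, because the day 0 and day 8 libraries of every called result did not overlap. Few of the 93 circRNAs and 105 host sums stayed called whichever 1 of the 6 libraries was left out. Leaving out 1 library gave 9 to 83 called circRNAs (8 to 58 higher, 1 to 25 lower) and 11 to 88 host sums, with the lone library of a day assumed to vary like the others. Without the read minimum, 480 of 3869 circRNAs (291 higher, 189 lower) and 284 of 2142 host sums were called, and 89 of the 93 circRNAs were among them. Restricting to circRNAs above 0 in all libraries gave 58 lower calls in place of 31. A pseudocount of 1 CPM gave 64 host sums. The other scalings, pseudocounts and minimums, and the fit of days 0 and 8 alone, kept these total counts within 1.5 times (67 to 118 circRNAs, 72 to 113 host sums), and host sums of exact matches only, an alternative chosen after seeing the data, gave 98. The labels do not say whether the replicate numbers pair the libraries. Same-numbered deviations had a correlation of -0.02 between days 0 and 8, which does not settle it, since counting noise can hide a pairing. With the numbers as a replicate block, 52 circRNAs (37 higher, 15 lower) and 100 host sums were called. The planned count-model tests on whole reads were not run, because the values are CPM and none stands for a single read. With 2 libraries per day, 2-fold changes were recovered in 14.6% of simulated cases with a mean of at least 10 reads. A circRNA that was not called may therefore still differ.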

Other observations

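Some further called host sums, chosen after their values were seen and forming no fixed list, came from genes of transport and metabolism. Slc1a5, a glutamine transporter, had 139 and 121 CPM at day 0, 372 and 297 at day 4 and 1421 and 782 CPM at day 8, 8.46-fold higher (limma, adjusted p = 0.0135). Other transporter genes went the other way. Slc7a11 fell from 1021 and 1186 to 196 and 355 CPM (adjusted p = 0.0385), Slc41a2, a magnesium transporter, from 87 and 101 to 29 and 49 reads (adjusted p = 0.0387) and Abcc1, an exporter of conjugates, from 108 and 84 to 14 and 39 reads (adjusted p = 0.0263). The alkaline ceramidase genes Acer2 and Acer3 both rose, Acer2 from 0 and 0 to 15 and 18 reads (adjusted p = 0.0135) and Acer3 from 1276 and 1768 to 3087 and 2819 CPM (1.94-fold, adjusted p = 0.0351). Pfkfb1, which sets the level of a key activator of glycolysis, had 0 and 3 reads at day 0, 0 and 2 at day 4 and 29 and 29 at day 8 (adjusted p = 0.0263). The calls of Slc7a11 and Slc41a2 were lost without any 1 of the 6 libraries (adjusted p up to 0.180 and 0.189) and in the fit of days 0 and 8 alone (0.0512 and 0.0752). That of Abcc1 was lost without any 1 library other than day 8 replicate 2 (up to 0.155), and those of Slc1a5, Acer2, Acer3 and Pfkfb1 at least without either day 8 library (up to 0.12, 0.0800, 0.199 and 0.12).

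Regulators of nutrient and hormone signalling were also chosen after their values were seen. Deptor, an inhibitor of mTOR, had 255 and 96.9 CPM at day 0, 87.5 and 223 at day 4 and 1445 and 1279 CPM at day 8, 7.74-fold higher (adjusted p = 0.0230). Sik2, a salt-inducible kinase, had 0 and 0 reads at day 0, 7 and 11 at day 4 and 15 and 19 at day 8 (adjusted p = 0.0135). Glcci1, a glucocorticoid-induced transcript, had 719 and 605 CPM at day 0, 2077 and 2476 at day 4 and 1543 and 1800 CPM at day 8, 2.52-fold higher (adjusted p = 0.0128), so it was highest at the end of the dexamethasone phase. The calls of Deptor, Sik2 and Glcci1 were lost at least without either day 8 library (up to 0.166, 0.0806 and 0.0814). Setd3, a methyltransferase gene, had 38 and 0 reads at day 0 and 0 and 44 at day 8, which places its replicates further apart than its days.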
